A study of Rattus norvegicus with 18 samples.

Results

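Aristolochic acid was compared with its solvent after 72 h in NRK-52E cells, an established epithelial line of rat kidney that the labels describe as renal proximal tubular. The AA 72 h group held 3 arrays of cells exposed to 1.65 µM aristolochic acid in 0.1% DMSO, a concentration the submitters set as the IC10 at 72 h, and the DMSO 72 h group held 3 arrays of cells given 0.1% DMSO alone. All cells were grown to confluence before exposure and came from 1 cell line, which the labels assign to the Osborne-Mendel strain. These 6 arrays were chosen by their titles from 18, the other 12 being AA and DMSO cultures taken after 6 h and 24 h. According to the labels the 3 arrays per group are biological replicates, with no word on separate cultures or days. The p-values of the gene tests therefore measure only the spread between arrays of a group, estimated from all 18 arrays together.

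Aristolochic acids are nitrophenanthrene carboxylic acids of Aristolochia plants that damage the kidney tubule and cause urothelial cancer. Cells reduce the nitro group, with NQO1 among the reductases known to do so, and the product forms bulky adducts on purines in DNA. Such lesions are handled by nucleotide excision repair and by translesion synthesis, and damaged cells stabilise p53, a transcription factor whose target p21, the product of Cdkn1a, halts the cell cycle. Antioxidant genes under NRF2 and amino acid stress genes under ATF4 make up other well known stress programmes, and they were listed together with p53 targets, cell-cycle genes and markers of kidney cell types.

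Proximal tubule markers were largely near the floor of the arrays. Of 34 such genes with a probe set, 29 had means under log2 4 in both groups, a level near the floor of these values, and 1 reached log2 6 in both. The organic anion transporters Slc22a6 and Slc22a8, known routes of aristolochic acid uptake, averaged 2.61 and 2.06 in AA cells, against 2.64 and 2.08 in DMSO cells. Among epithelial genes 18 of 26 were under log2 4, Cdh1 (E-cadherin) included at 2.57 in AA and 2.60 in DMSO, while 7 were at log2 6 or more in both groups. Fibroblast and pericyte genes were also present, with 6 of 15 at log2 6 or more. All 15 loop, distal and collecting duct markers were under log2 4, as were 10 of 12 endothelial and 14 of 16 immune markers. The summed linear level of the fibroblast list was 28036, 23722 and 26209 in AA, against 32643, 31648 and 28551 in DMSO, and that of the proximal tubule list 600, 589 and 696 in AA, against 1052, 991 and 942 in DMSO. The epithelial sum was 35036, 35206 and 33909 in AA, against 31257, 31503 and 29773 in DMSO. The endothelial sums were 128 to 134 in AA and 166 to 188 in DMSO. Each sum is set by its few bright members. In the fibroblast list Col3a1, at 14.32 in AA and 14.64 in DMSO, makes up most of the sum, while Acta2 was higher in AA. In the proximal tubule list Slc4a4 and Aqp1 were lower and Slc7a9 and Gatm higher, and in the endothelial list Tek was lower while Egfl7, at 6.07 in AA and 5.78 in DMSO, did not pass. The ranges did not overlap for these 4 sums, and an exact two-sided permutation test gave p = 0.1 for each, the smallest that 3 against 3 arrays allow. Immune sums overlapped, at 2450 to 2629 in AA and 2291 to 2592 in DMSO. The part of these marker levels in the results below was not tested. In these bulk cultures fewer cells of a type and less RNA per cell cannot be told apart.

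Arrays of the same group correlated at r = 0.988 to 0.997, and AA with DMSO arrays at 0.948 to 0.966. The 3' minus 5' signal of beta-actin, a sign of RNA or cRNA integrity, was 1.85, 2.16 and 1.99 on the log2 scale in AA, against 1.31, 1.29 and 1.45 in DMSO. That of Gapdh averaged −0.07 in AA and −0.21 in DMSO, and that of hexokinase 1.38 in AA and 1.12 in DMSO. Exact permutation gave p = 0.1 for the first 2 of these and 0.3 for hexokinase. The mean of the BioB spike-in control was 9.39, 8.95 and 8.67 in AA, against 8.64, 8.35 and 8.55 in DMSO (exact permutation p = 0.1). The beta-actin and BioB differences moved with treatment in every array, and their part in the results below was not tested.

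AA changed a large share of the measured transcriptome at 72 h. Of 9015 genes at log2 4 or more on at least 3 of the 18 arrays, 4257 (47.2%) passed limma's moderated test at an adjusted p under 0.05. Of these, 2472 (27.4% of genes tested) were higher in AA and 1785 (19.8%) lower. Most changes were modest, with a median absolute log2 difference of 0.53 among the genes past the test. At least a 2-fold change was seen for 386 higher and 437 lower genes, and at least 4-fold for 83 higher and 130 lower. The AA and DMSO arrays did not overlap for 5372 genes, 59.6% of those tested. The difference between AA and DMSO after 24 h, each time having its own DMSO cultures, called 188 genes, 1.81% of genes higher and 0.277% lower, and that after 6 h called 2211, 12.1% higher and 12.4% lower. A gene list is read below against these shares, and a log2 difference of 1 is 2-fold.

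**Figure D1:**
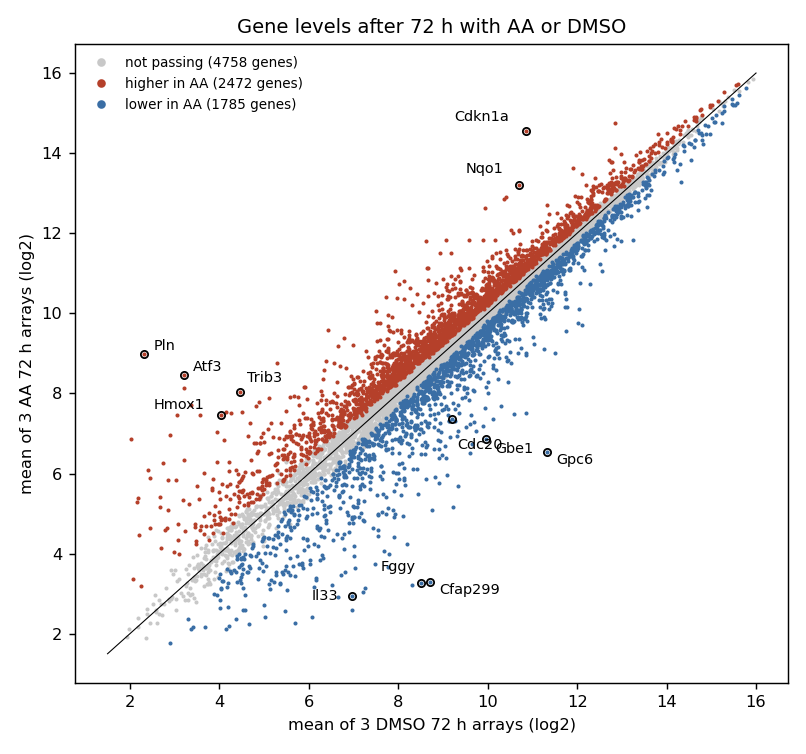
Mean log2 level of each of 9015 genes on 3 AA 72 h arrays (vertical axis) and 3 DMSO 72 h arrays (horizontal axis), with genes past the test in red where higher and blue where lower in AA. Cdkn1a and Nqo1 lie far above the line of equal level at high levels in both groups, while Pln and Atf3 rise from the floor and Cfap299 and Fggy fall to it.

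Targets of p53 rose together. Of 30 tested members of the list of p53 arrest and feedback genes, 23 were higher in AA, 3 lower and 4 did not pass, and the median log2 difference was 1.09, against 0.05 over all genes. Cdkn1a, the inhibitor of cyclin-dependent kinases p21, was at 14.57, 14.63 and 14.48 in AA, against 10.88, 11.02 and 10.65 in DMSO. That is 13.1-fold, a log2 difference of 3.71 ± 0.09 (SE, n = 3 a group; adjusted p = 1.56e-16), and a further probe set of the gene gave 4.35. Mdm2, the ubiquitin ligase that degrades p53, stood at 12.84, 12.70 and 13.20 in AA, against 10.55, 10.48 and 10.17 in DMSO, a 5.71-fold difference (adjusted p = 2.70e-12). Both feedback and arrest genes were thus separated from DMSO on every array. Ccng1 (cyclin G1) was 3.74-fold higher, with 14.83, 14.67 and 14.78 in AA and 12.89, 12.87 and 12.81 in DMSO. Gadd45a, a growth arrest and damage protein, was 2.58-fold higher at 11.77, 12.22 and 12.18 in AA, against 10.77, 10.56 and 10.74 in DMSO. Plk2, a polo-like kinase, rose 6.82-fold, Phlda3, an inhibitor of AKT, 6.48-fold, the receptor kinase Epha2 6.37-fold and Sesn2 (sestrin 2), an inhibitor of mTORC1, 4.99-fold.

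Gdf15, a secreted stress cytokine, was at 5.33, 6.32 and 6.61 in AA and at 2.43, 2.39 and 2.40 in DMSO, where it lay near the floor, so its log2 difference of 3.68 ± 0.24 depends on where that floor is. The 3 members that fell were Sesn1, Cd82 and Ddb2, at −0.74, −0.74 and −0.49, named after their values were seen. Ddb2 recognises lesions for excision repair, and Sesn1 is a second sestrin. At 24 h 5 of the 30 members were higher in AA, against 1.81% of all genes, and at 6 h 4 were higher and 6 lower, against 12.1% and 12.4%. The difference of the effect, 72 h minus 24 h, was tested for each gene and passed for 2921 of the 9015 (32.4%), positive for 18.7% and negative for 13.7%. It was positive for 19 of the 30 p53 targets and negative for 2, and for Cdkn1a it was 2.60, from 1.12 at 24 h and 3.71 at 72 h.

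Among the Bcl-2 family and caspases, the regulators and executioners of apoptosis, 10 of 19 were higher, 3 lower and the median was 0.28. The BH3-only genes Bbc3 (Puma) and Bid rose with Bak1, an effector of mitochondrial permeabilisation. Bbc3 was at 9.91, 10.03 and 9.98 in AA, against 7.96, 7.70 and 7.65 in DMSO, 4.61-fold higher (adjusted p = 4.52e-12). Bid rose 2.12-fold on the probe set used and gave 0.14 on the other, near the floor, and Bak1 rose 1.70-fold. The survival gene Bcl2l1 was higher as well, by 1.34 ± 0.12, while its other probe sets gave 0.31 and −0.02, the last of them at the floor. Genes that promote and that oppose apoptosis were both among those that rose.

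**Figure D2:**
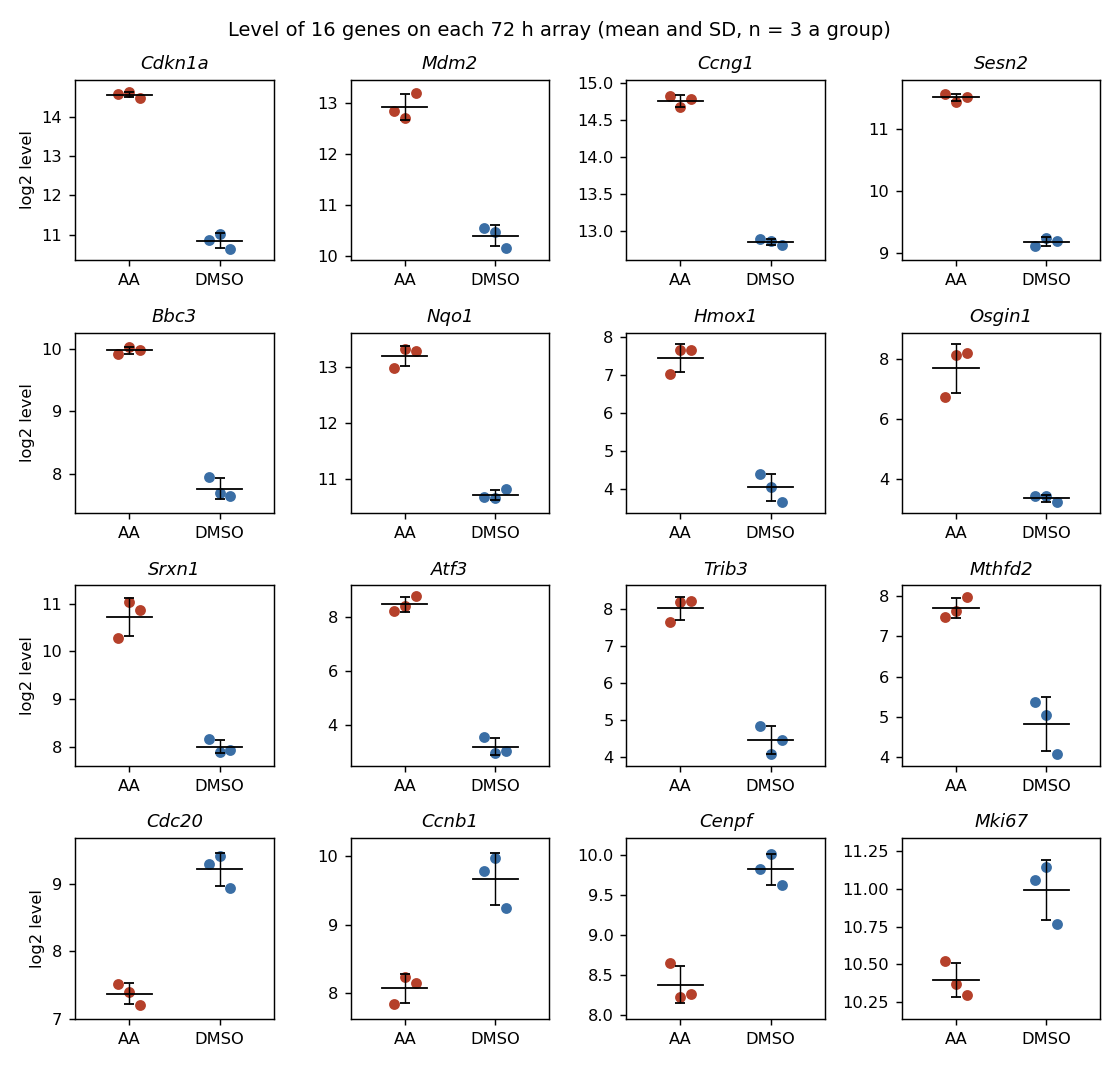
Log2 level of 16 genes on each of 3 AA 72 h and 3 DMSO 72 h arrays, with the group mean and SD. The p53 targets Cdkn1a, Mdm2, Ccng1, Sesn2 and Bbc3, the NRF2 targets Nqo1, Hmox1, Osgin1 and Srxn1 and the ATF4 targets Atf3, Trib3 and Mthfd2 were higher on all AA arrays, and the mitotic genes Cdc20, Ccnb1, Cenpf and Mki67 lower on all of them.

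Genes of G2 and mitosis were mostly lower. Of 59 tested, 36 were lower in AA, 8 higher and 15 did not pass, with a median log2 difference of −0.58. The lower share, 61.0%, stands against 19.8% of all genes. Arrays did not overlap, in either direction, for 43 of the 59, against 59.6% of all genes. Cdc20, the activator of the anaphase-promoting complex, was at 7.52, 7.39 and 7.21 in AA, against 9.29, 9.41 and 8.94 in DMSO, lower by 1.84 ± 0.20 (adjusted p = 3.42e-07). A further probe set gave −1.95, and 3 near the floor in both groups gave −0.01, −0.03 and −0.39. Ccnb1, the cyclin that drives entry into mitosis, was at 7.84, 8.24 and 8.15 in AA and at 9.78, 9.98 and 9.24 in DMSO, a 3.01-fold difference. Cenpf, a kinetochore protein, was 2.72-fold lower, and the proliferation marker Mki67 fell 1.51-fold, with 10.52, 10.37 and 10.30 in AA and 11.06, 11.15 and 10.77 in DMSO. In each of these genes the DMSO arrays lay above all AA arrays. Cenpm, a centromere protein, went the other way, at 8.52, 8.78 and 8.78 in AA and 6.69, 6.87 and 6.53 in DMSO, 3.99-fold higher.

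The direction of the list's median at 72 h was opposite to that at 24 h. After 24 h 48 of the 59 genes were higher in AA, none lower, with a median of 0.85, and after 6 h 7 were higher, near the share of all genes, with a median of 0.17. The effect at 72 h was below that at 24 h for 47 members by the test of the difference and above it for 2. Cdc20 was at 0.91 after 24 h, a difference between the times of −2.75 (adjusted p = 5.75e-07), and Ccnb1 at 0.82, a difference of −2.41. Over all genes, 163 were higher in AA at 24 h. Of these 52 were lower at 72 h, 32 of them from the G2 and mitosis list, and 50 were higher, 6 of them from the list.

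**Figure D3:**
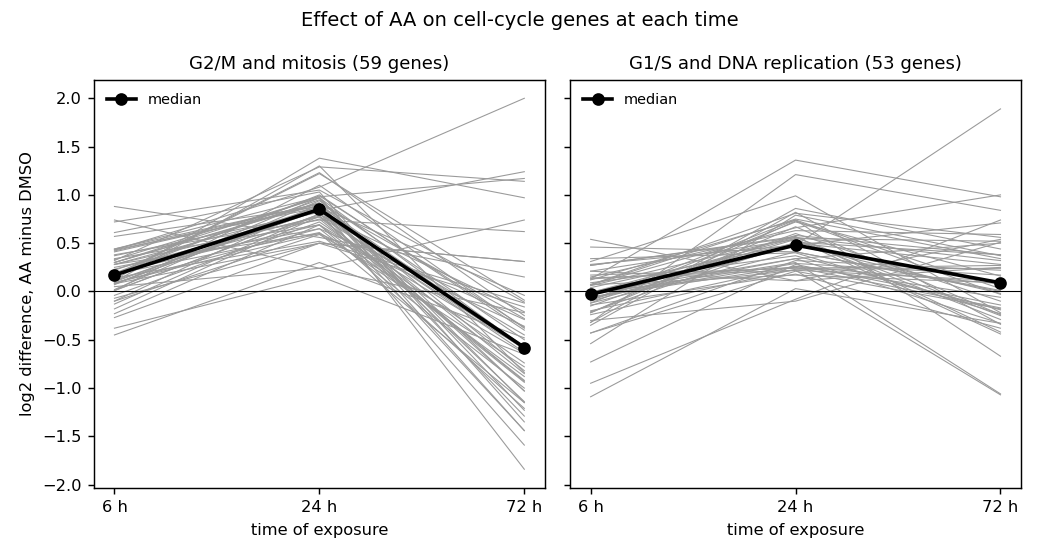
Log2 difference, AA minus DMSO, after 6, 24 and 72 h for each tested gene of G2 and mitosis (59 genes, left) and of G1/S and DNA replication (53 genes, right), with the median in black. The mitotic median is 0.17, 0.85 and −0.58, and the replication median −0.03, 0.48 and 0.09.

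Promoters of mitotic genes are shown because most members were higher at 24 h and most were lower at 72 h. Many mammalian G2/M promoters hold CCAAT boxes, bound by NF-Y, and a cell-cycle homology region TTTGAA, read by the MuvB core of the DREAM complex, which represses in resting cells and after p53 activation. RefSeq (GRCr8) gave a promoter of 250 bases before to 50 after the start for 52 of the 59 genes. On either strand, CCAAT was in 38 of them (73.1%), against 38.8% of the 7646 tested genes with a promoter, and TTTGAA in 33 (63.5%), against 11.2%. Both were in 27 (51.9%), against 4.79%. Among members lower at 72 h, 20 of 32 held both, and among those higher 3 of 7. In the stretches below, read 5' to 3' on the strand of the gene, capitals mark CCAAT, its reverse ATTGG, and TTTGAA. In Cdca8 the TTTGAA and an ATTGG share bases.
Cdc20, chr5:137255826-137255895, minus strand: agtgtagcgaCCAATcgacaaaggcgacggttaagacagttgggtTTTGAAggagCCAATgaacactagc
Espl1, chr7:135302589-135302648, plus strand: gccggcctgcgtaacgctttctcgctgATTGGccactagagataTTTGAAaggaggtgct
Cdca8, chr5:142483274-142483401, minus strand: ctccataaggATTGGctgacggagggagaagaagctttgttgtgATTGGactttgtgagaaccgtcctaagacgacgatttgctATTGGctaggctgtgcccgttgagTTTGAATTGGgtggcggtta
Ccnb2, chr8:79981686-79981882, minus strand: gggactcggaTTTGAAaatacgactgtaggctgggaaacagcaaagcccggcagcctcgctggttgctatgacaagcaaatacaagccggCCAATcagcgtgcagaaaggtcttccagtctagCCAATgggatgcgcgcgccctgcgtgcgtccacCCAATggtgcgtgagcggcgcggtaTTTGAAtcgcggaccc
These were the 4 members past the test with the largest change and both motifs upstream of the start. Cdca8 (borealin, of the chromosomal passenger complex) and Ccnb2 (cyclin B2) were at −1.15 and −1.14 with Cdc20, while Espl1 (separase) carries the same pair and was higher, at 1.17. A match of letters describes the window and shows no binding.

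Genes of G1/S and replication were split, with 20 of 53 higher, 6 lower and a median of 0.09. Tyms (thymidylate synthase) was at 10.23, 10.02 and 10.36 in AA, against 8.26, 8.25 and 8.43 in DMSO, 3.71-fold higher. Pola1, the catalytic subunit of DNA polymerase alpha, fell 2.10-fold and Prim2, of its primase, 2.08-fold, while Pola2, of the same complex, rose 2.01-fold. The members of 1 enzyme complex thus moved both ways. The count rested on 1 array: without DMSO replicate 3, 8 members were higher and 13 lower. At 24 h 24 members had been higher and none lower, with a median of 0.48.

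DNA repair genes changed little as a group. In nucleotide excision repair 8 of 26 were higher and 5 lower, near the shares of all genes, with a median of 0.03, and leaving out AA replicate 3 or DMSO replicate 1 or 3 gave 4 to 5 higher members and 2 to 3 lower ones. The lower count was also 2 without AA replicate 1 or DMSO replicate 2. Xrcc1, a scaffold for single-strand break repair and the sealing of excision gaps, was at 9.37, 9.73 and 9.55 in AA, against 8.28, 8.28 and 8.14 in DMSO, 2.5-fold higher. Xpa, the damage verification factor, fell 1.66-fold, at 8.74, 8.52 and 8.52 in AA, against 9.21, 9.25 and 9.49 in DMSO. Ercc4, the nuclease subunit XPF, rose by 1.18 ± 0.21 on the probe set used, while the other, at the floor, gave −0.02. Of 19 genes of homologous recombination and the Fanconi pathway, 3 rose, 3 fell and 13 did not pass, and 1 fell without DMSO replicate 2. Fancl, the ubiquitin ligase of the Fanconi pathway, was 2.89-fold lower, at 7.05, 7.20 and 6.85 in AA, against 8.57, 8.58 and 8.53 in DMSO, and Fancb, of the same core complex, was 2.35-fold higher. In the list of checkpoint and translesion genes 6 of 19 were higher (31.6%) and 3 lower (15.8%), near the shares of all genes. The translesion polymerases Polh and Rev1 rose, Polh 1.93-fold at 5.88, 6.64 and 6.58 in AA and 5.69, 5.37 and 5.20 in DMSO, and Rev1 1.52-fold. The checkpoint kinase gene Chek2 fell 2.03-fold, to 3.41, 4.45 and 4.16 in AA, around log2 4, against 4.96, 5.18 and 4.95 in DMSO.

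Most NRF2 targets rose, 19 of 24, with 2 lower and a median of 0.87. Nqo1, the quinone reductase that also reduces aristolochic acid, was at 12.99, 13.32 and 13.28 in AA, against 10.67, 10.65 and 10.81 in DMSO, 5.60-fold higher (adjusted p = 2.20e-10). Hmox1 (heme oxygenase 1) was at 7.03, 7.65 and 7.66 in AA and 4.4, 4.05 and 3.67 in DMSO, 10.6-fold higher. Srxn1, which restores oxidised peroxiredoxins, was 6.53-fold higher at 10.28, 11.03 and 10.86 in AA and 8.17, 7.91 and 7.95 in DMSO. A further probe set of Srxn1 gave 1.62 and another, at the floor, −0.02. On every AA array each of these 3 genes exceeded all DMSO arrays. Osgin1, an oxidative stress induced growth inhibitor, was at 6.75, 8.14 and 8.21 in AA and near the floor in DMSO at 3.43, 3.43 and 3.23. Akr1b8, an aldo-keto reductase, rose 8.85-fold, and the glutathione transferase Gsta1, not in the list, 9.10-fold, at 11.33, 12.20 and 11.90 in AA and 8.72, 8.56 and 8.6 in DMSO. The lower members were Gsr (glutathione reductase) at −0.73, named after its value was seen, and the export pump Abcc4 at −0.44, whose call was lost without AA replicate 2 or 3 or DMSO replicate 1 or 2. At 24 h 1 of the 24 had passed, and for 15 the effect at 72 h was above that at 24 h. The difference for Nqo1 was 2.47, from 0.02 at 24 h.

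Of 9 genes of the aryl hydrocarbon receptor and of drug metabolism, 4 were higher and 1 lower. Por, the reductase that feeds electrons to cytochromes P450 and can itself reduce nitro groups, was at 9.79, 10.25 and 9.87 in AA and 8.98, 9.08 and 8.80 in DMSO, 2.02-fold higher. Its other probe set gave 0.42 and did not pass. The arylamine acetyltransferases Nat2 and Nat1 rose 1.82-fold and 1.69-fold. Cyp1a1, the classic target of that receptor, averaged 2.84 in AA and 2.64 in DMSO, below the level tested. Among 6 efflux pumps Abcg2 rose 3.71-fold, at 6.87, 7.31 and 7.61 in AA and 5.27, 5.8 and 5.04 in DMSO. Abcc5 gave −1.84 on the probe set used and 0.73 on another, at 7.45 in AA and 6.72 in DMSO, and both passed, so its direction is not settled.

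Amino acid and endoplasmic reticulum stress genes differed in extent. In the ATF4 list 18 of 29 were higher, 2 lower and the median was 0.62. Atf3, a transcription factor induced by many stresses, was at 8.23, 8.39 and 8.77 in AA, against 3.56, 2.98 and 3.06 in DMSO, which is near the floor, a log2 difference of 5.27 ± 0.23 (adjusted p = 7.18e-13). Trib3, a pseudokinase that restrains AKT and ATF4, was 11.8-fold higher with 7.67, 8.19 and 8.22 in AA and 4.84, 4.08 and 4.48 in DMSO, and its other probe sets gave 2.92 and 2.19. Mthfd2, of mitochondrial folate metabolism, was 7.28-fold higher, at 7.49, 7.62 and 7.97 in AA and 5.37, 5.05 and 4.08 in DMSO. Atf3 and Trib3 had not passed at 24 h, where they were at 0.57 and 0.22. The 2 members that fell, Nupr1 at −1.25 and Pck2 at −1.11, were named after their values were seen. Of the charging enzymes of transfer RNA, which ATF4 also induces, 7 of 19 were higher and 1 lower, at a median of 0.14, and 4 were higher and 2 lower when all probe sets of a gene were averaged. With the most variable probe set 4 were higher and 4 lower. Gars1 was 2.09-fold higher on the probe set used and gave −0.63 on another that did not pass. Among genes of the unfolded protein response the test passed for 9 higher and 3 lower of 26, with a median of 0.10, and for 5 lower after quantile normalisation. Its chaperone Sdf2l1 rose 1.94-fold and Dnajc3 1.64-fold, while the sensor Atf6 fell 1.62-fold. Heat shock genes numbered 9 higher and 2 lower of 24, and their median of 0.05 equalled that of all genes. The small heat shock protein Hspb8 was highest among them at 4.15-fold, with 9.54, 9.98 and 10.25 in AA and 8.07, 7.87 and 7.67 in DMSO, and Hsf1, the master regulator, rose 1.93-fold.

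Immediate early genes and growth factor signals were also higher. Of 25 immediate early genes 19 rose, 1 fell and the median was 0.68, and the lower count was 0 with any single array but AA replicate 3 left out, with centred arrays or without the filter. Klf4, a factor that opposes proliferation, was at 8.35, 8.53 and 8.89 in AA, against 6.13, 6.48 and 6.39 in DMSO, 4.77-fold higher, whereas at 6 h it had been lower by 1.27. Ier5 was 3.13-fold higher and Egr2 2.80-fold, each on its brightest probe set, the others lying at the floor. Among EGFR ligands and ERK feedback genes 7 of 16 rose and 3 fell. The ligand Areg (amphiregulin) rose 3.08-fold, at 7.09, 7.71 and 7.69 in AA and 5.61, 6.31 and 5.70 in DMSO, the ligand Hbegf 1.78-fold and the feedback inhibitor Spry4 2.22-fold. The ligands thus rose beside an inhibitor of the same pathway.

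Inflammatory genes were mostly unexpressed, with 23 of 38 below the level tested, Ccl2 among them at 2.95 in AA and 2.49 in DMSO. Of the 15 tested, 8 rose and 2 fell. The neutrophil chemokine Cxcl1 was 2.56-fold higher, with 7.61, 8.04 and 7.55 in AA and 6.56, 6.50 and 6.07 in DMSO, and the adhesion molecule Icam1 1.98-fold. Il33, an alarmin kept in the nucleus, fell to 2.92, 2.93 and 2.94 in AA, at the floor, against 6.81, 6.99 and 7.11 in DMSO, and a further probe set gave −5.14. Of 25 interferon-stimulated genes 12 were higher and 4 lower, with a median of 0.24, and 2 were lower without AA replicate 1, DMSO replicate 1 or 2, or with centred arrays. Isg15, a ubiquitin-like modifier, was 5.74-fold higher at 8.75, 9.37 and 9.41 in AA and 6.49, 6.96 and 6.52 in DMSO. The peptide transporter gene Tap1 rose 5.37-fold on its brighter probe set, the factor Irf7 3.47-fold, and the nuclease Isg20, outside the list, 8.83-fold. The co-stimulatory ligand Cd80 was at 6.22, 5.96 and 6.59 in AA, against 2.59, 3.26 and 2.39 in DMSO near the floor. Of secreted factors tied to senescence 8 of 10 rose, none fell, and 15 were below the level tested. Vegfa, the angiogenic factor, was 4.55-fold higher, at 9.64, 9.82 and 9.86 in AA, against 7.46, 7.82 and 7.47 in DMSO.

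TGF-beta genes went both ways, with 9 of 27 higher and 8 lower, and 5 were higher when probe sets were averaged. Tgfb1, the profibrotic ligand, was at 7.23, 6.89 and 6.64 in AA, against 5.50, 5.67 and 5.39 in DMSO, 2.65-fold higher (adjusted p = 2.57e-06). Ltbp1, which holds the latent ligand in the matrix, was 2.92-fold lower, with 10.51, 9.93 and 10.07 in AA and 11.83, 11.78 and 11.54 in DMSO. The BMP target Id3 fell 2.06-fold and the activin subunit Inhba 4.26-fold, to a level near the floor. The other probe set of Inhba, near the floor in both groups, gave −0.63 and did not pass. Cytoskeletal targets of SRF and YAP were higher in 18 of 26 genes and lower in none, with a median of 0.41, and lower in 3 with the most variable probe set or 1 without DMSO replicate 3. Tagln (transgelin) was at 13.29, 13.60 and 13.52 in AA and 12.23, 12.36 and 11.75 in DMSO, 2.57-fold higher. Acta2, the smooth muscle actin of myofibroblasts, was at 10.71, 10.41 and 10.61 in AA, against 10.23, 9.94 and 9.35 in DMSO, 1.67-fold higher. Of 14 genes of mesenchymal transition 3 rose and 2 fell, while 0 fell without AA replicate 2 and 1 without AA replicate 3 or DMSO replicate 1 or 2. Vim (vimentin) was at 14.50, 14.39 and 14.48 in AA and 14.64, 14.65 and 14.38 in DMSO, which overlap, and its difference of −0.10 did not pass (adjusted p = 0.295). Itga5, the fibronectin receptor subunit, rose 2.63-fold. Among 8 tested epithelial genes 3 were higher and 1 lower, the lower count being 0 or 2 when single arrays other than DMSO replicate 3 were left out. The lower member was Cdh2 (N-cadherin) at −0.33, which is also 1 of the 2 lower genes of the mesenchymal list. The desmosomal gene Pkp2 was at 10.37, 10.62 and 10.45 in AA, against 9.32, 9.46 and 9.30 in DMSO, 2.17-fold higher, and the keratin gene Krt8 rose 1.46-fold. Matrix genes were divided, with 7 of 30 higher and 8 lower, 5 being lower without AA replicate 2. The laminin-332 chains Lama3 and Lamb3 rose 8.18-fold and 2.33-fold, Lama3 being at 7.20, 7.57 and 7.83 in AA and 5.10, 3.90 and 4.49 in DMSO, while Eln (elastin) and Col12a1 fell 1.83-fold and 2.01-fold. Mgp, a matrix inhibitor of calcification outside the list, fell 8.55-fold to 7.87, 7.20 and 7.38 in AA, against 10.80, 10.52 and 10.42 in DMSO.

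Kidney genes that could be tested were few. Slc7a9, the cystine transporter of the proximal brush border, was at 6.82, 7.05 and 7.26 in AA, against 3.82, 4.15 and 3.85 in DMSO near the floor. The bicarbonate transporter Slc4a4 was 6.78-fold lower, with 6.47, 5.28 and 5.82 in AA and 8.64, 8.71 and 8.52 in DMSO. The water channel Aqp1 was 5.01-fold lower, at 6.22, 5.94 and 6.17 in AA and 8.48, 8.39 and 8.43 in DMSO, and its other probe set gave −3.72. Gatm, of creatine synthesis, was 4.16-fold higher on its brighter probe set, with 7.33, 7.45 and 7.89 in AA and 6.49, 5.17 and 4.84 in DMSO. Of the 6 proximal tubule genes tested, 2 rose and 3 fell. Among tubule injury markers 6 of 12 rose and none fell, and 12 more were below the level tested. In 6 alternatives 1 to 2 were lower, DMSO replicates 2 and 3 each leaving 1 when left out. Havcr1 (KIM-1), the standard marker of proximal injury, averaged 1.91 in AA and 1.93 in DMSO, at the floor. Cd44, a hyaluronan receptor of injured tubules, was 4.94-fold higher, at 6.73, 6.53 and 7.57 in AA and 5.17, 4.93 and 3.83 in DMSO, and Clu (clusterin) was 1.59-fold higher on its brighter probe set. Of the 2 tested immune markers, Cd14 was at 11.23 in AA and 11.20 in DMSO and did not pass. The other, the lysosomal gene Cd68, was 3.72-fold higher in AA, from near the floor in DMSO. Of the 2 tested endothelial markers, the receptor gene Tek fell 4.05-fold and Egfl7 did not pass.

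Metabolic genes rose in several lists. In glycolysis and the hypoxia response 19 of 29 were higher and 1 lower, with a median of 0.38, and none was lower without AA replicate 2 or 3, DMSO replicate 2 or 3, or with centred arrays. Slc2a1, the glucose transporter GLUT1, was at 8.93, 9.02 and 9.12 in AA, against 8.19, 8.01 and 7.72 in DMSO, 2.06-fold higher. Pfkl, the liver isoform of phosphofructokinase, rose 2.49-fold, and Pfkfb3, which makes its activator, 1.97-fold on the brightest of its probe sets. Cholesterol synthesis had 11 higher and 1 lower of 20 genes, 0 lower without AA replicate 1 or 3 or DMSO replicate 1 or 2, and a median of 0.40, Mvd being 2.76-fold and Idi1 1.73-fold higher. A further probe set of Idi1 gave 0.95. Fatty acid synthesis had 5 of 16 higher and 2 lower, and 3 were higher without AA replicate 3 or DMSO replicate 1 or 3, without the filter or without the intensity trend. The lower count was 1 without AA replicate 2 or DMSO replicate 1 or 2. Me1, the malic enzyme that supplies NADPH and is also on the NRF2 list, was 3.24-fold higher at 10.37, 10.65 and 10.52 in AA and 8.92, 8.90 and 8.62 in DMSO, while Acaca, the committed step, fell 1.66-fold. Of fatty acid oxidation and PPAR genes 9 of 19 rose and 1 fell, and 2 were lower without AA replicate 2. Angptl4, an inhibitor of lipoprotein lipase, was 4.81-fold higher, at 7.92, 8.40 and 8.19 in AA and 5.83, 5.73 and 6.15 in DMSO, and the kinase gene Pdk4, which restrains pyruvate oxidation, 2.25-fold on its brighter probe set. Lysosomal and autophagy genes rose in 15 of 36 and fell in 4, the first count being 9 with the most variable probe set of each gene and the second 2 without DMSO replicate 1 or 2 or with centred arrays. The autophagosome gene Map1lc3a was 1.86-fold higher.

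Genes of cytosolic ribosomal proteins and of proteasome subunits moved apart. Of 40 cytosolic ribosomal protein genes 30 were lower, 1 higher and the median was −0.24. Rps9 was at 13.84, 13.94 and 13.73 in AA, against 14.51, 14.56 and 14.55 in DMSO, 1.63-fold lower. Rpl21 and Rpl12 were 1.42-fold and 1.39-fold lower. With arrays centred on their medians or normalised by quantiles again, 24 members were lower. Ribosome biogenesis genes, which act in the nucleolus, were higher in 15 of 51, near the share of all genes, and lower in 3. Rrn3, the factor that recruits RNA polymerase I, was 1.80-fold higher. Proteasome subunits were higher in 20 of 37 and lower in none, with a median of 0.20, and 13 were higher without AA replicate 2 or without DMSO replicate 3, with 1 lower in the absence of AA replicate 2. Psmb7, a catalytic subunit, was at 11.48, 11.76 and 11.53 in AA, against 10.77, 10.76 and 10.83 in DMSO, 1.74-fold higher. Respiratory chain subunits were lower in 16 of 66 and higher in 6, with a median of −0.02. Splicing genes were lower in 17 of 58 and higher in 12, and 11 were lower without DMSO replicate 2. Hnrnpa1 was 2.45-fold lower on the probe set used, while others gave −0.83 and, at 11.11 in AA and 10.98 in DMSO, 0.13 (not past the test). Genes of RNA polymerase II and general transcription were higher in 15 of 55 (27.3%), the share of all genes being 27.4%. They were lower in 4 (7.27%), against 19.8% of all genes, and in 1 to 2 with centred arrays or without any single array but AA replicate 2.

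**Figure D4:**
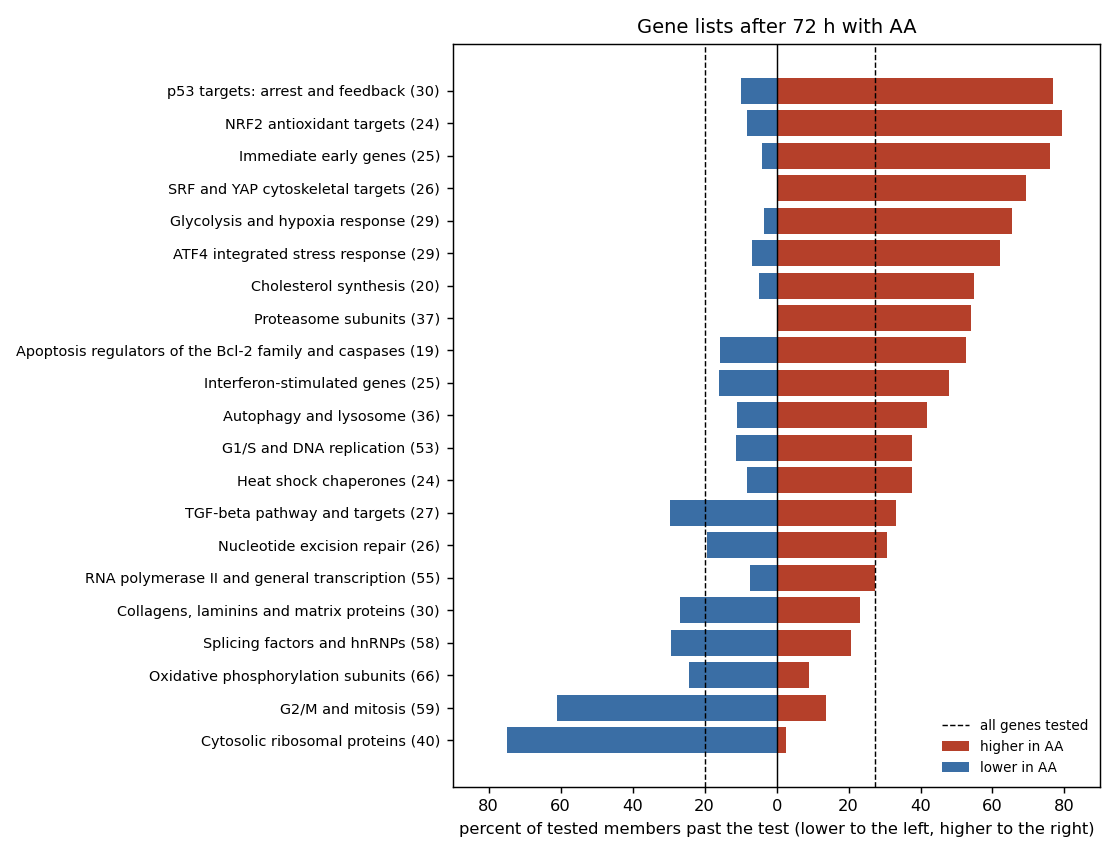
Percent of tested members of gene lists that were higher (red, right) or lower (blue, left) in AA at 72 h, with the number tested in brackets and dashed lines at the shares of all genes, 27.4% and 19.8%. Of the lists drawn, the p53, NRF2 and immediate early lists reach furthest to the right, and the ribosomal protein and mitosis lists furthest to the left.

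Long genes were lower. The genomic span of each gene was taken from RefSeq on GRCr8 for 9010 of the 9015 genes. Of 182 genes spanning over 300 kb, 156 (85.7%) were lower in AA and 6 (3.30%) higher, with a median log2 difference of −1.6. Of 986 genes of 100 to 300 kb, 51.9% were lower with a median of −0.31, against 18.5% of 2664 genes of 30 to 100 kb, 10.7% of 3011 genes of 10 to 30 kb and 13.8% of 2167 genes under 10 kb. The median span was 60.6 kb for lower, 18.4 kb for higher and 23.0 kb for the remaining genes, and 312 kb for the 130 genes lower by at least 4-fold. Of these, 111 spanned over 100 kb. Spearman's correlation between span and log2 difference at 72 h was −0.26 across genes and −0.23 across the 7878 genes with both means at log2 6 or more. Across all genes with a span it was −0.21 at 24 h and −0.15 at 6 h. Genes share arrays and are not independent, so no p is given. At 24 h the median of the longest class was −0.20, with 11 of 182 lower (6.04%), against 0.277% of all genes. At 6 h the median of that class was near 0. The beta-actin 3' to 5' signal differed between the same arrays, as given above.

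**Figure D5:**
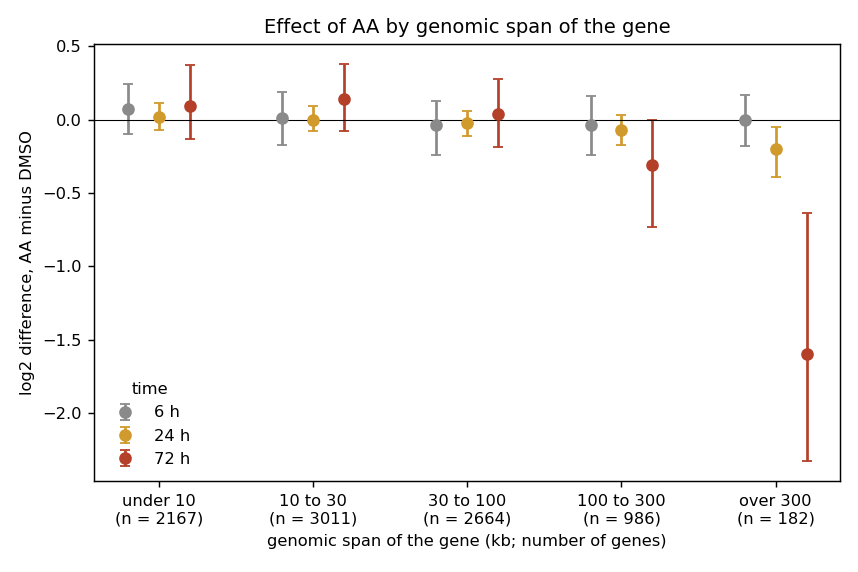
Median log2 difference, AA minus DMSO, with the lower and upper quartiles as bars, for genes grouped by genomic span, after 6, 24 and 72 h. After 72 h the median is −0.31 for genes of 100 to 300 kb and −1.6 for those over 300 kb, and at the earlier times the lowest median is −0.20, that of the longest class after 24 h.

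The deepest falls were of long genes of varied function. Cfap299, a cilia and flagella associated gene of 486 kb, was at 3.37, 3.37 and 3.12 in AA, against 8.86, 8.82 and 8.48 in DMSO, a log2 difference of −5.43 ± 0.14 (adjusted p = 4.27e-16). Fggy, a carbohydrate kinase gene of 387 kb, was at 3.03, 3.37 and 3.38 in AA and 8.50, 8.65 and 8.38 in DMSO. Gmds, the GDP-mannose dehydratase gene of 527 kb, was at 3.42, 3.61 and 2.60 in AA and 8.27, 8.39 and 8.24 in DMSO. All 3 lay near the floor in AA, so their fold is limited by the floor. Gpc6 (glypican 6), of 998 kb, stayed measurable at 7.02, 6.54 and 6.07 in AA, against 11.30, 11.34 and 11.35 in DMSO, 27.7-fold lower, and further probe sets gave −5.29, −1.71 and −1.07. Bbs9, of the BBSome of cilia, with 425 kb, was 16.9-fold lower, and Enox2, with 322 kb on chromosome X, 15.5-fold. Atg10 (an autophagy conjugating enzyme, 290 kb), Trappc9 (vesicle tethering, 477 kb), Gtdc1 (a glycosyltransferase, 395 kb), Pcca (propionyl-CoA carboxylase, 340 kb) and Ank2 (ankyrin 2, 576 kb) fell by 4.36, 4.16, 4.13, 4.11 and 3.81. For Ank2 further probe sets at the floor gave −0.02. Of the 12 deepest falls 10 spanned over 300 kb, Il33 with 34.4 kb being the shortest. Among genes at log2 6 or more in both groups, Ttc28 (441 kb) fell 10.1-fold, the glycogen branching enzyme gene Gbe1 (265 kb) 8.70-fold, Phactr1 (477 kb) 8.45-fold, Cmss1 (298 kb) 7.47-fold and the growth factor homologue Fgf13 (526 kb) 6.55-fold. The complement regulator Cd55, with 29.3 kb, fell 6.80-fold.

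Of 47 chromatin modifiers 11 were lower and 7 higher, and 7 were lower with centred arrays, without the filter on low values or without any of AA replicates 2 and 3 and DMSO replicates 1 and 3. With the most variable probe set of each gene 12 were higher, so the list has no settled balance. The histone deacetylase gene Hdac4 (250 kb) fell by 2.44 to near the floor. Chd2 (129 kb), a chromatin remodeller, rose 2.24-fold on the probe set used, while another gave 0.59 and did not pass. Among ubiquitin ligases 5 of 24 rose and 5 fell, and 2 to 3 rose after quantile normalisation or without any single array but AA replicate 3, without which 3 fell. Nedd4l (333 kb), which controls the epithelial sodium channel, was 3.57-fold lower, at 6.25, 6.2 and 5.68 in AA, against 7.91, 7.89 and 7.83 in DMSO. Fbxw7 (162 kb), the adaptor that targets cyclin E, was 2.38-fold higher, at 10.41, 10.22 and 10.43 in AA and 9.10, 9.15 and 9.06 in DMSO, a long gene that rose.

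In the Notch and Wnt list 8 of 22 rose and 7 fell. Notch1, a receptor that is also on the p53 list, was at 9.33, 9.20 and 9.10 in AA, against 7.09, 7.10 and 6.74 in DMSO, 4.71-fold higher. The ligand Wnt4 rose 4.09-fold, with 6.81, 7.33 and 7.19 in AA and 5.23, 5.43 and 4.57 in DMSO, while the ligand Wnt5a fell 2.71-fold. Of 16 clock genes 6 rose and 2 fell. The repressor Nr1d1 was 2.20-fold higher, and the output factors Tef and Hlf were lower, Tef 1.93-fold and Hlf 6.01-fold on the probe sets used, with −0.95 and −0.22 on others of Tef and −2.89, −1.47 and −0.04 on others of Hlf. Of 5 histone genes tested, H2aj, a variant known to accumulate in senescent human cells, rose 2.11-fold at 11.02, 11.72 and 11.34 in AA and 10.20, 10.26 and 10.37 in DMSO.

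The largest rises began at the floor. Values there hardly vary, the SD of Pln on the DMSO 72 h arrays being 0.02. A gene at the floor in all other groups passes the filter on low values only through the group where it is high. For such a gene the adjusted p adds little to the levels themselves. Pln (phospholamban), the inhibitor of the calcium pump SERCA, was at 8.75, 9.02 and 9.17 in AA, against 2.33, 2.30 and 2.31 in DMSO, a log2 difference of 6.67 ± 0.16 (adjusted p = 1.56e-16). A further probe set gave 5.8 and another, at the floor in both groups, −0.03. Slc51a, a subunit of the basolateral transporter of steroids and bile acids, was at 6.24, 7.36 and 6.98 in AA and 2.04, 2.01 and 2.02 in DMSO. Pinlyp, an inhibitor of phospholipase A2, was at 6.82, 7.42 and 8.11 in AA and 3.04, 3.22 and 2.92 in DMSO. None of these 3 had passed at 24 h, where their differences were 0.01, 0.42 and 0.48. Spetex2l2 rose by 4.93, Phlda2, an imprinted growth suppressor, by 4.06 and Hapln3, a hyaluronan link protein, by 3.88, each from near the floor. The 12 largest rises had a median span of 15.1 kb and none reached 100 kb.

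The effect at 72 h was also set against that at 6 h, where the test of the difference passed for 3710 genes (41.2%). Depdc7 had the turn from a fall at 6 h, −1.89, to a rise at 72 h of 3.24 ± 0.29, at 7.22, 7.57 and 7.75 in AA and 4.43, 4.32 and 4.07 in DMSO, and its other probe set gave 0.79 at 72 h. Where a gene past the test had more probe sets, 1290 of 1621 others (79.6%) had the same sign, 798 of them past the test, and 81 passed with the opposite sign. Directions of single genes therefore hold for the probe set used.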

How the data were processed

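RNA of 18 NRK-52E cultures was hybridised to Affymetrix rat arrays. The deposited log2 values per probe set were normalised by the authors with GCRMA, per the submitters' processing notes, and a version is not given in the sources used here. Scanner files were not used here. Of 31099 probe sets, 20826 carried 1 gene symbol, 436 several, 9780 none and 57 were controls. Each of 14217 genes was represented by its probe set with the highest mean over all arrays, and symbols of 20758 probe sets matched RefSeq, which also gave spans and promoters (GRCr8). Values have a floor near log2 2, so folds against it are understated or depend on it, and the number of arrays limits the precision. Values at the floor hardly vary, and a gene at it in all other groups enters the test only through its high group. The adjusted p of such a gene adds little to its levels.

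Groups came from array titles. Genes reaching log2 4 on 3 or more of the arrays, 9015 in all, entered a model in limma 3.58.1 in R 4.3.3 with 6 group means over 18 arrays (lmFit, then eBayes with trend, leaving 12 degrees of freedom for the residuals), with Benjamini-Hochberg adjustment over all 9015 and a threshold of 0.05. Folds are 2 to the power of the log2 difference. The difference of effects between times was a contrast of the same model. Tested on simulated data for AA against DMSO at 72 h over 9015 genes, the model recovered 74.6% of changes of 0.5 log2, 95.5% of 1 and 100% of 2, with 5.76% false among 191 calls. The simulation changed 67, 67 and 66 genes by these sizes, with independent noise for each gene. Far more genes passed in the data, so these rates need not hold there. Single values per array were compared by exact permutation.

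Named genes were the 12 largest changes each way without overlapping arrays, the 8 largest each way with both means at log2 6 or more, up to 4 members past the test per gene list, a small set of p53, metabolism and injury genes, and the 6 largest differences between times each way. Other names are said to be chosen after their values were seen. The members and lists were chosen with earlier results of these data known. The 17 alternatives covered normalisation, filters, moderation, choice of probe set, a replicate block and leaving out each 72 h array. Some items are not reported here.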

Additional observations from a re-analysis of the deposited data

Results flagged for a closer look

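The effect of AA differed between 72 h and 24 h for 2921 genes by the contrast of effects in limma. The log2 difference of effects, 72 h minus 24 h, was 6.66 for Pln, 4.70 for Atf3, 4.45 for Spetex2l2, 4.41 for Slc51a, 4.0 for Osgin1 and 3.90 for Pinlyp. It was −4.90 for Cfap299, −4.87 for Fggy, −4.50 for Gmds, −4.07 for Gpc6, −3.97 for Il33 and −3.78 for Atg10.

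Between 72 h and 6 h the effect differed for 3710 genes. The difference, 72 h minus 6 h, was 6.64 for Pln, 5.14 for Spetex2l2, 5.13 for Depdc7, 4.95 for Pinlyp, 4.84 for Atf3 and 4.83 for Slc51a. It was −5.82 for Cfap299, −5.56 for Fggy, −5.17 for Gmds, −4.76 for Gpc6, −4.20 for Trappc9 and −4.16 for Atg10. In most of these genes 1 group at 72 h lay near the floor, so the sizes depend on it.

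Probe sets without a gene symbol, which entered no comparison above, also differed. Of 3455 tested by the same model, 1405 passed (40.7%), 793 higher and 612 lower in AA, and 232 were higher and 179 lower by at least 2-fold.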

How the results depend on the processing

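The number of genes past the test at 72 h was 4257, and lay between 4025 (no filter on low values) and 4384 (only the 72 h arrays fitted) in the alternatives that kept all 72 h arrays. Leaving out 1 array at a time gave 3629 to 4207, with 2029 to 2543 higher and 1493 to 1664 lower. Of the genes past the test 58.1% were higher, 61.4% with arrays centred on their medians and 54.1% after quantile normalisation. Same-numbered arrays did not deviate together (r = 0.014, 0.014 and −0.069 for numbers 1, 2 and 3, with 0 arrays closest to their own number), so the numbers were not taken as pairs. With the replicate block 4256 genes passed, and the differences of effect passed for 2950 (72 h minus 24 h) and 3732 (72 h minus 6 h) genes. Of 198 named genes 25 lost a call in at least 1 of 17 alternatives. Taking the most variable probe set turned the sign of Ercc4 to −0.02, Gtf2h1 to −0.46, Hus1 to −0.45, Gars1 to −0.63, Hyou1 to −0.08 and Itgb1 to −0.08, since another probe set then stood for the gene. Counts of 0 lower members became up to 3 in the SRF and YAP list (most variable probe set) and up to 2 in the tubule injury list (only the 72 h arrays, or quantile normalisation), and 3 arrays a group leave small changes undetected.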

Other observations

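A few very long genes were higher in AA. Of the 182 genes over 300 kb these were Maf, Pakap, Gse1, Nbas, Zwint and Iqsec1, named after their values were seen. Maf, a transcription factor of 363 kb as annotated, averaged 4.70 in AA and 3.59 in DMSO, near the floor. Pakap, a locus of 467 kb, averaged 12.28 in AA and 11.32 in DMSO, a log2 difference of 0.96 ± 0.12 (limma, adjusted p = 2.19e-06). Zwint, a kinetochore protein, averaged 12.28 in AA and 11.86 in DMSO, Gse1 9.20 in AA and 8.76 in DMSO, Nbas 8.37 in AA and 7.95 in DMSO, and Iqsec1 10.05 in AA and 9.66 in DMSO. These 4 differed by 0.38 to 0.44.

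All 25 genes lower at 24 h were tested at 72 h, where 19 were lower again and none was higher.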
